A study of Homo sapiens with 18 samples.

Results

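The serine tRNAs in the table of m1A sites were 14 genes with 68 listed adenosines, out of 180 tRNA genes with 725 listed adenosines. They were taken by name, as every line whose tRNA name starts with tRNA-Ser, without use of any measured value. Small RNA came from WPMY-1, an immortalised human prostate stromal myofibroblast line. The cells carried an empty vector (labelled TRMT61A wildtype) or sh61A, a short hairpin RNA against TRMT61A (labelled TRMT61A knockdown). From each line there were 3 libraries of input RNA, 3 of RNA immunoprecipitated (IP) with an m1A antibody and left untreated (AlkB-), and 3 of the same kind of IP treated with the demethylase AlkB (AlkB+), which made 18 libraries in 6 groups. The labels name 1 hairpin and 1 cell line, and leave unstated whether replicates came from separate cultures. The p-values therefore refer to variation among libraries, part or all of which may be technical. TRMT61A mRNA was not analysed here, so the knockdown itself was not checked.

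Serine tRNAs, with leucine tRNAs, belong to the cytosolic class with a long variable arm, an extra stem between the anticodon arm and the T arm. Seryl-tRNA synthetase recognises this arm and not the anticodon, which lets a single enzyme charge tRNAs for both serine codon boxes: AGA, TGA and CGA anticodons read UCN codons and GCT reads AGU and AGC. N1-methyladenosine (m1A) at position 58 of the T loop is made by the TRMT6/TRMT61A complex. The methyl group blocks base pairing, so that reverse transcriptase stops at the base or misreads it, and AlkB removes it. In these data a stop appears as fewer reads at position 58 than at the bases on its 3′ side, and a misreading as a mismatch.

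The 14 genes held 4 AGA, 3 TGA, 1 CGA and 6 GCT anticodons, and 10 of them lie on chromosome 6 between 26305490 and 28213118 (hg38). All 14 matched RefSeq tRNA genes at the same coordinates. Of these, Ser-AGA-2-6 on chromosome 17 lies within CTC1, a protein-coding gene, and Ser-GCT-3-1 on chromosome 11 overlaps B4GAT1-DT, a long noncoding RNA; the others overlap no other RefSeq gene in the table used. The genes are 82 nt long, except Ser-GCT-6-1 with 84 nt. The 5 sequences below are shown because the results turn on where their listed adenosines lie; those adenosines are in capitals, 5′ to 3′, as DNA from the authors' deposited table.
Ser-AGA-1-1 at chr6:27541775-27541856 (-): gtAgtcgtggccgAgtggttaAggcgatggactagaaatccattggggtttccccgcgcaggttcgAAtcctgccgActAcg
Ser-TGA-2-1 at chr6:27545689-27545770 (+): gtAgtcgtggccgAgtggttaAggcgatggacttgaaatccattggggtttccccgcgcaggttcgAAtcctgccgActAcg
Ser-TGA-4-1 at chr6:27505828-27505909 (-): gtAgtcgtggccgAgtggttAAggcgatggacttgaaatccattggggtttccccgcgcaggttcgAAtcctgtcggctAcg
Ser-CGA-4-1 at chr12:56190364-56190445 (+): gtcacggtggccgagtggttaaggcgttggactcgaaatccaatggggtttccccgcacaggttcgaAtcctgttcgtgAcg
Ser-GCT-3-1 at chr11:66348120-66348201 (+): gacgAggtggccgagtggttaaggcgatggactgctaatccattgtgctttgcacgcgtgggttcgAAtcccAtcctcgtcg

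Because of the variable arm, the adenosine that is number 67 in an 82-nt gene is position 58 of the tRNA; it lies 15 nucleotides before the 3′ end, and positions 59, 68 and 71 lie 14, 5 and 2 nucleotides before it. Position 58 was listed in 8 genes: the 4 AGA genes, the 3 TGA genes and Ser-GCT-3-1. No adenosine between numbers 22 and 67 was listed in any serine gene, so no value for the first anticodon base or the base after the anticodon was analysed here. The last 22 bases sort the genes into 6 kinds, each given with the bases that differ from the first kind in capitals, because reads from the 3′ end that stop at position 58 or on its 3′ side cover no more than these bases, while longer reads can reach bases that differ.
Ser-AGA-1-1, shared by 6 genes: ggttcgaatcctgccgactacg
Ser-TGA-4-1, 1 gene: ggttcgaatcctgTcgGctacg
Ser-CGA-4-1, 1 gene: ggttcgaatcctgTTCGTGacg
Ser-GCT-1-1, 1 gene: ggttcgaatccCAccCTcGTcg
Ser-GCT-2-1, 1 gene: ggttcgaatccCAccTTcGTcg
Ser-GCT-3-1, shared by 4 genes: ggttcgaatccCATcCTcGTcg

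The first kind is called the shared AGA/TGA end here; it belongs to all 4 AGA genes, Ser-TGA-2-1 and Ser-TGA-3-1. The remaining TGA gene, Ser-TGA-4-1, differs from it at 2 bases. At the other end of the molecule the first 24 bases are the same in all 7 AGA and TGA genes. Counts at such identical stretches were nearly equal between the genes: at A3 of the 7 genes the chi-square per degree of freedom for equal counts had a median of 0.765 over 18 libraries and was below 2 in 17 of them. At position 71 of the 6 genes with the shared AGA/TGA end the median was 1.11, and 15 of 18 libraries were below 2. Values of single genes at such stretches may therefore share reads, and reads were also summed over the genes with the same 3′ end.

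Depth set the precision. Reads summed over all sites ranged from 115580 to 890428 per library, and over the serine sites from 2444 in an input library to 53472 in a vector IP library without AlkB. Between 22 and 62 of the 68 serine sites had at least 20 reads, the minimum for a test. A 3′-end site was listed in 8 of the serine genes, and these took 1.65% ± 0.171 of the 3′-end reads of all tRNAs in vector input and 1.95% ± 0.0621 in knockdown input (SD, n = 3). Intervals and upper limits given below cover counting error only, since the reads carry no molecular identifiers in the sources used here.

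In input RNA, reads of the shared AGA/TGA end rarely reached position 58, and those of Ser-TGA-4-1 reached it far more often. Read-through is used here for reads at position 58 as a share of reads at the 3′ end. For the shared AGA/TGA end it was 24 of 343, 20 of 198 and 10 of 216 reads in the vector libraries, which is 7.0%, 10.1% and 4.63%. In the knockdown libraries it was 24 of 151, 30 of 196 and 17 of 136 reads, or 15.9%, 15.3% and 12.5%. All 3 knockdown values lay above all 3 vector values. Ser-TGA-4-1 had 40.0%, 38.8% and 39.2% in vector and 41.0%, 42.1% and 42.1% in knockdown, on 263 to 380 reads per library. Its groups did not overlap either, but they lay within a few percentage points of each other. Non-overlap was not particular to serine. Gln-CTG-1-4 had 13.1% to 14.7% in vector and 17.9% to 19.3% in knockdown. Val-TAC-1-1 had 81.7% to 83.3% and 86.8% to 89.5%. Other tRNAs overlapped, such as Leu-CAA-1-1 with 21.2% to 30.4% and 28.7% to 37.5%.

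Read-through of the shared AGA/TGA end rose from 7.24% ± 2.74 in vector to 14.6% ± 1.81 in knockdown (SD, n = 3), a log2 change of 1.06 (SE 0.30, limma over 31 groups of tRNAs with the same 3′ end, adjusted p = 0.0448). Over all those groups 35.5% were called and the median log2 change was 0.43, so a rise was common in this comparison. The call was narrow: it was lost without vector replicate 1 or 3 or without any 1 knockdown replicate (adjusted p = 0.0994 to 0.139) and kept without vector replicate 2 (adjusted p = 0.0301), while the log2 change stayed between 0.78 and 1.33. Ser-TGA-4-1 went from 39.3% ± 0.621 to 41.7% ± 0.638 (SD, n = 3), a log2 change of 0.09 (SE 0.05, limma adjusted p = 0.253), which did not pass.

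Split by gene, the tested members of the shared end had 21 to 57 3′-end reads per input library. Tests on single genes passed for none of the 4 serine tRNAs with at least 20 such reads in every input library, where 30.8% of the 52 tRNAs tested were called. Ser-AGA-3-1 went from 7.19% ± 4.70 to 14.1% ± 0.990 (SD, n = 3; log2 change 1.02, limma adjusted p = 0.124). Ser-AGA-4-1 went from 7.18% ± 5.62 to 14.6% ± 6.45 (SD, n = 3; 1.13, limma adjusted p = 0.197). Ser-TGA-2-1 went from 7.30% ± 2.38 to 17.9% ± 13.7 (SD, n = 3; 1.03, limma adjusted p = 0.201). These 3 genes carry the same 3′ end and gave nearly the same change; 1 of the 4 had an unadjusted p under 0.05. Summed by anticodon, Ser-AGA went from 6.51% to 13.99% (log2 change 1.14, limma adjusted p = 0.0484) and Ser-TGA, most of whose 3′-end reads belonged to Ser-TGA-4-1, from 32.9% to 37.3% (0.18, limma adjusted p = 0.0484), beside 37.5% of 24 anticodons called. Neither was called with the replicate number as a block or with tRNAs weighted equally, and leaving out any 1 library left 0 or 1 call. The serine anticodons are not independent, since Ser-TGA-2-1 and Ser-TGA-3-1 carry the 3′ end of the AGA genes and may share their reads.

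Setting position 58 against the neighbouring position 59 measures the drop at a single base. In vector input 24 of 242, 20 of 147 and 10 of 154 reads of the shared AGA/TGA end went on from 59 to 58, which is 9.92%, 13.6% and 6.49%. In knockdown input it was 24 of 102, 30 of 145 and 17 of 103 reads, or 23.5%, 20.7% and 16.5%, so the groups did not overlap. Nor did those of some other tRNAs, such as Gln-CTG-1-4 with 19.4% to 22.6% in vector and 26.4% to 28.3% in knockdown. The groups of Ser-TGA-4-1 overlapped at this step. The log2 change was 1.05 (SE 0.30, limma adjusted p = 0.0467; 36.8% of 19 groups called). The adjusted p was 0.0537 with the replicate number as a block, and 0.0772 to 0.117 without vector replicate 1 or 3 or any 1 knockdown replicate. Ser-TGA-4-1 went on in 47.0% ± 1.80 of reads in vector and 49.4% ± 1.70 in knockdown (SD, n = 3; log2 change 0.07, limma adjusted p = 0.478). Some reads were also lost before this step, in similar shares in both lines: from position 71 to 59 the shared AGA/TGA end kept 72.0% ± 1.95 of its reads in vector and 72.4% ± 4.31 in knockdown (SD, n = 3), and Ser-TGA-4-1 kept 83.6% ± 1.86 and 84.5% ± 2.30 (SD, n = 3).

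**Figure D1:**
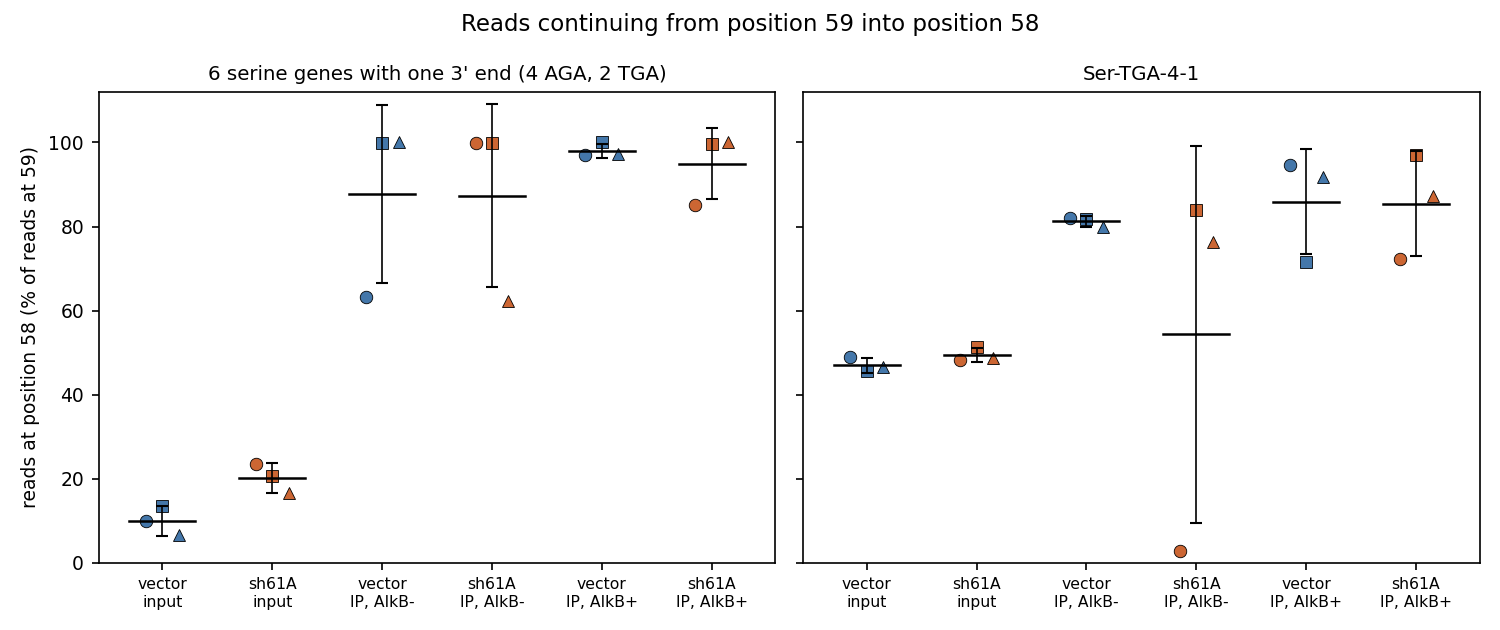
Reads at tRNA position 58 as a percentage of reads at position 59 in each of the 18 libraries, for the 6 genes with the shared AGA/TGA end (left) and Ser-TGA-4-1 (right); circles, squares and triangles are replicates 1, 2 and 3, horizontal bars are means and whiskers SD (n = 3). In input the shared end lies between 6.49% and 23.5% with knockdown above vector, Ser-TGA-4-1 lies between 45.5% and 51.4%, and knockdown IP replicate 1 without AlkB has 2.80% for Ser-TGA-4-1.

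Within each library the shared AGA/TGA end read through less than Ser-TGA-4-1, by a log2 ratio of -2.47 ± 0.552 in vector input and -1.50 ± 0.194 in knockdown input (SD, n = 3). The gap was smaller by 0.97 in knockdown, and the groups did not overlap. A two-sided exact permutation test gave p = 0.1, the smallest that 3 against 3 libraries allow, so that the difference between both ends in their response to knockdown could not pass. The pair was chosen after its values were seen.

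Beside the other amino acids, the summed serine tRNAs read through in 25.1% ± 1.19 of reads in vector input and 31.8% ± 0.961 in knockdown input (SD, n = 3). Sums by amino acid, here and below, hold only genes with both a listed position 58 and a listed 3′-end site. For serine these were the 7 AGA and TGA genes, without Ser-CGA-4-1 and the GCT genes. This sum mixes the shared AGA/TGA end with Ser-TGA-4-1, whose read-through was higher. The mix changed as well: Ser-TGA-4-1 went from 0.682% to 0.982% of all 3′-end reads, and the shared end from 0.548% to 0.566%. Leucine, the other amino acid with a long variable arm, stood at 22.1% ± 2.84 without and 28.3% ± 3.92 with knockdown (SD, n = 3). Relative to all other tRNAs summed, serine changed by -0.37 on the log2 scale (SE 0.08, limma adjusted p = 0.00556) and leucine by -0.39 (SE 0.13, limma adjusted p = 0.0271), beside 75.0% of the 12 amino acids called. Of the 12, 58.3% were called lower and 16.7% higher, so a negative value was common and not particular to serine. The sign of the serine value depends on the weighting: with each tRNA weighted equally it was 0.40 (limma adjusted p = 0.395). Over the 6 groups the amino acids nearest to serine in read-through, out of 9 compared, were glycine, leucine and glutamine, with mean absolute log2 differences of 0.28, 0.35 and 0.46; this is a description of 6 group means that share libraries.

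**Figure D2:**
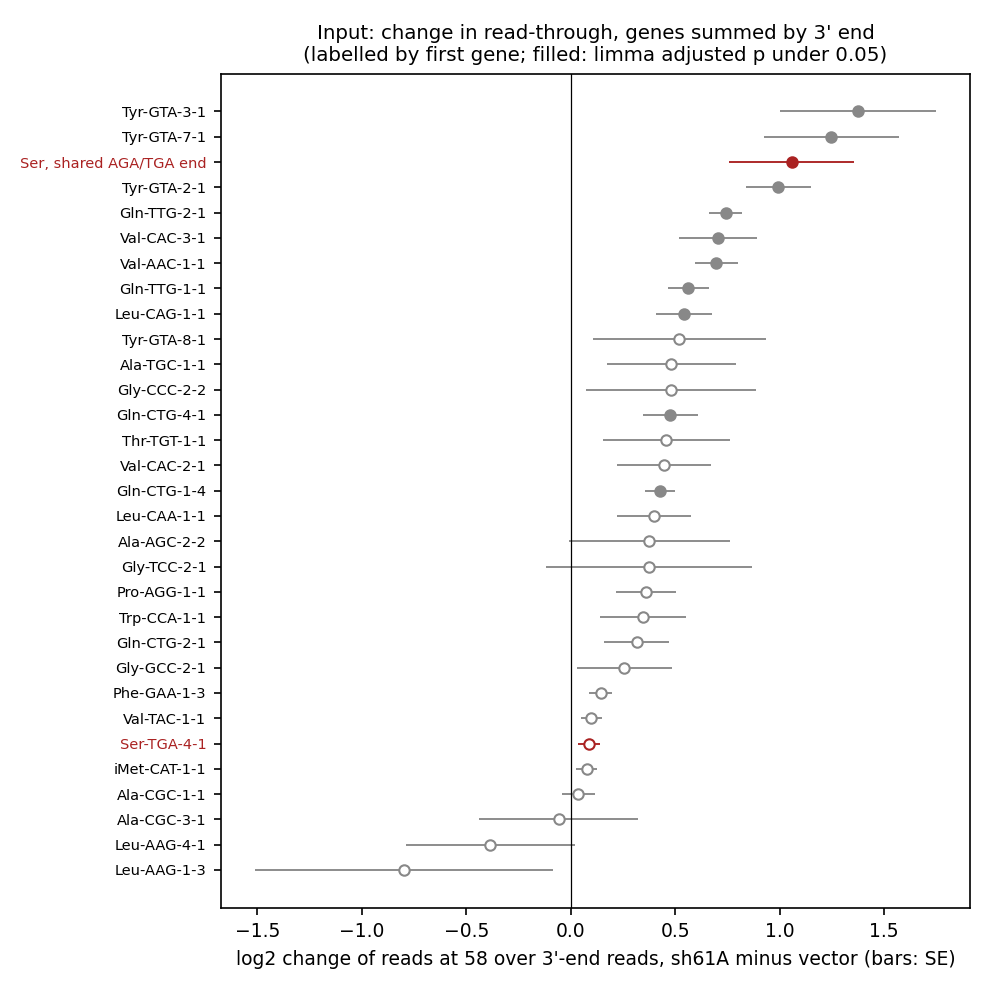
Log2 change in read-through of position 58, knockdown minus vector input, for the 31 groups of tRNAs with the same 3′ end, each named by its first gene; bars are SE and filled points have a limma adjusted p under 0.05. The serine ends, in red, lie apart, the shared AGA/TGA end at 1.06 and Ser-TGA-4-1 at 0.09, with a median of 0.43 over all groups.

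IP RNA of the shared AGA/TGA end reached position 58 in a much larger share of reads than input did. In vector IP without AlkB the replicates had 1545 of 2443, 1309 of 1310 and 683 of 683 reads going on from 59 to 58, which is 63.2%, 99.9% and all of the reads. In knockdown IP without AlkB the values were 2990 of 2991, 413 of 414 and 1936 of 3109 reads, or 99.97%, 99.8% and 62.3%. Every IP library without AlkB lay above every input library. In each line 2 of 3 replicates lost almost no read at this step and the other lost a large part of them.

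Against input of the same line, the step into position 58 rose by 3.12 on the log2 scale in vector (SE 0.32, limma with the replicate as a block, adjusted p = 0.00383; 83.3% of 12 groups called) and by 2.07 in knockdown (SE 0.12, adjusted p = 0.00329; 57.1% of 14 groups called). Ser-TGA-4-1 rose from 47.0% to 81.2% ± 1.24 in vector (SD, n = 3; log2 change 0.79, limma adjusted p = 0.00241). In knockdown IP it had 83.9% and 76.4% in replicates 2 and 3, but 96 of 3426 reads, 2.80%, in replicate 1. Its log2 change against input was -0.92 (SE 1.34, limma adjusted p = 0.693) with replicate 1 and 0.68 (limma adjusted p = 0.0208) without it. That library thus decides the sign of this value.

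Measured as read-through from the 3′ end, 6 of 7 serine tRNAs were called in vector IP against input, beside 53.3% of 45 tRNAs, and the seventh, Ser-AGA-3-1, had a limma adjusted p of 0.0819. Leaving out pair 2 or 3 of the libraries reduced the 6 calls to 0 or 1. The 7 tRNAs are not independent, since all but Ser-TGA-4-1 carry the shared AGA/TGA end and may share reads. Summed by 3′ end, 2 of 2 serine ends were called in vector, beside 45.5% of 22 groups. In knockdown 2 of 4 serine tRNAs were called (Ser-AGA-3-1 and Ser-AGA-4-1), beside 45.5% of 44 tRNAs, and without knockdown replicate 3 there were none. Both carry the shared AGA/TGA end. Summed by 3′ end, 1 of 2 serine ends was called in knockdown, beside 45.8% of 24 groups. Summed by amino acid, IP without AlkB had a mean serine read-through of 72.6% in vector and 55.9% in knockdown, and a leucine read-through of 93.0% and 84.9%. The serine libraries spread widely. Those of the shared AGA/TGA end lay between 24.0% and 99.6% in vector and between 57.7% and 98.3% in knockdown. Those of Ser-TGA-4-1 lay between 67.6% and 74.8% in vector and between 2.79% and 70.3% in knockdown. The difference between the lines in these amino acid sums was not tested. Between knockdown and vector IP without AlkB no serine tRNA passed (0 of 7, and 0 of 44 tRNAs in all by limma, 5 of them with an unadjusted p under 0.05). With AlkB none passed either (0 of 1 serine tRNA, and 0 of 44 in all with 0 at an unadjusted p under 0.05).

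AlkB treatment of the IP RNA changed no serine read-through past the threshold. The shared AGA/TGA end went on from 59 to 58 in 98.1% ± 1.69 of reads in treated vector libraries against 87.7% ± 21.2 without treatment (SD, n = 3; log2 change 0.19, limma adjusted p = 0.922). Ser-TGA-4-1 had 85.9% ± 12.6 against 81.2% ± 1.24 (SD, n = 3; 0.07, limma adjusted p = 0.922). In knockdown cells the shared AGA/TGA end had 94.97% ± 8.46 with AlkB and 87.3% ± 21.7 without (SD, n = 3; 0.15, limma adjusted p = 0.751). Ser-TGA-4-1 had 85.4% ± 12.4 with AlkB and 54.4% ± 44.8 without (SD, n = 3; 1.69, limma adjusted p = 0.537), where the untreated mean includes replicate 1 with 2.80%. Several untreated IP libraries already lay at or near 100%. As read-through, 0 of 7 serine tRNAs passed in vector, beside 8.89% of 45 tRNAs.

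At the 5′ end, input had far fewer reads at A22 than at A14, although A22 lies on the 3′ side of A14. This is the reverse of the order described above for a stop. Position 3 of the 7 AGA and TGA genes had 539 to 620 reads per vector input library and 502 to 585 per knockdown input library, and position 14 the same numbers within 1%. A few bases on, at A22 of 5 of these genes, input kept 5.50% ± 1.89 of the A14 reads in vector and 4.50% ± 2.16 in knockdown (SD, n = 3). The share was low in both lines and the groups overlapped. Reads at position 3 of the 7 genes were 107% ± 21.3 of those at position 71 in vector input. In knockdown input they were 127% ± 17.8 (SD, n = 3 each). The source of these 5′ reads was not tested.

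**Figure D3:**
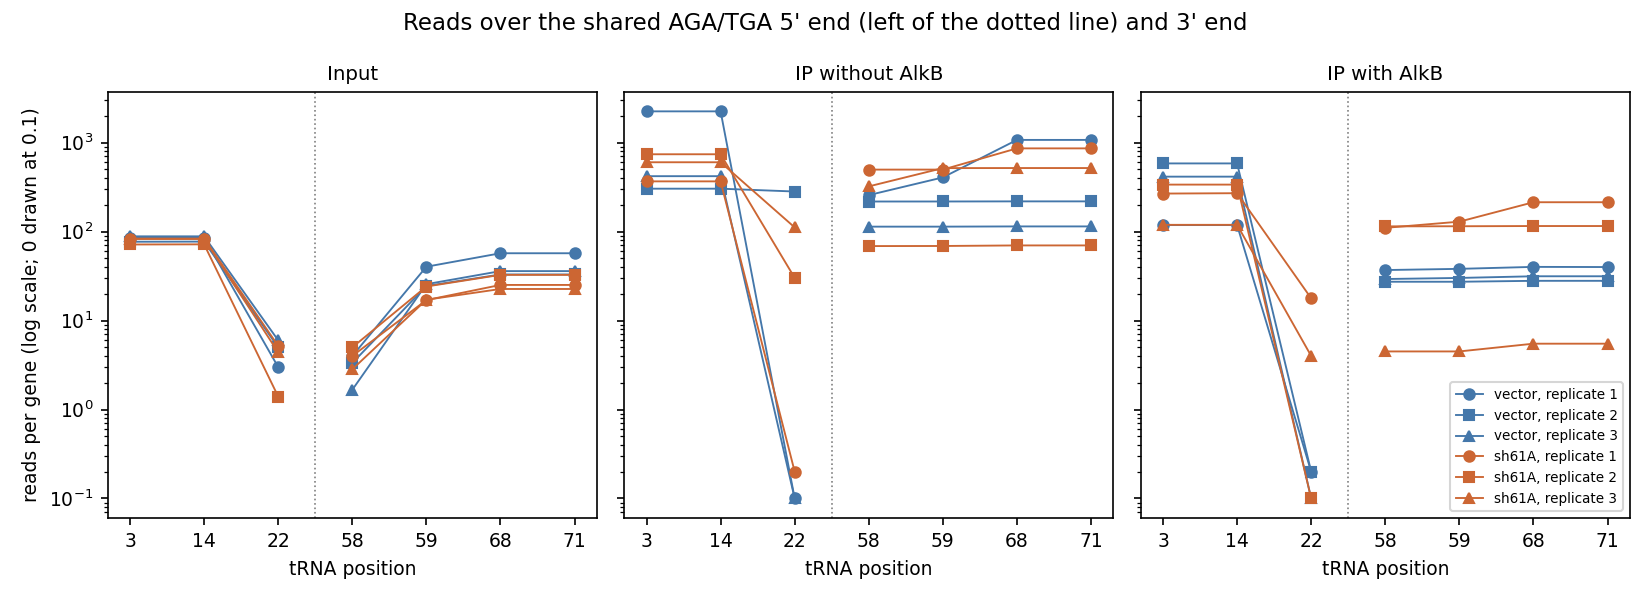
Reads per gene (log scale, 0 drawn at 0.1) at tRNA positions 3, 14 and 22 of the AGA/TGA 5′ end and 58, 59, 68 and 71 of the shared AGA/TGA 3′ end, for input, IP without AlkB and IP with AlkB; blue is vector, orange knockdown, and circles, squares and triangles are replicates 1, 2 and 3. Input libraries of both lines have fewer reads at 22 than at 14 on its 5′ side, and fewer at 58 than at 59 on its 3′ side. At 58 they have 6.49% to 13.6% of the reads at position 59 in vector and 16.5% to 23.5% in knockdown. Among IP libraries the reads at 22 as a share of those at 14 differ between replicates. The exception is vector with AlkB, where all 3 have at most 0.168%.

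In IP RNA the same stretch varied by library. Of the A14 reads in vector IP without AlkB, 0 of 11225, 1413 of 1518 and 0 of 2101 were also present at A22, so that replicate 2 kept 93.1% and the others none, which allows a share of up to 3 reads each. Knockdown IP without AlkB kept 1 of 1843, 151 of 3742 and 558 of 3047 reads. With AlkB, vector kept 1 of 596, 1 of 2911 and 0 of 2107 reads, less than any input library, and knockdown kept 89 of 1307, 0 of 1648 and 20 of 612. The spread between replicates was thus wider than in input without AlkB (SD 53.7 and 9.60 percentage points in vector and knockdown), narrower in vector with AlkB (SD 0.0886) and 3.41 in knockdown with AlkB. The GCT genes also differed between replicates: A5 of the 5 GCT genes that list it had 1189 reads in vector IP replicate 1 without AlkB and 0 and 1 in the others, against 28 to 58 reads per vector input library and 38 to 46 per knockdown input library.

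The share of the 3′-end reads separated the serine tRNAs further. In input, Ser-TGA-4-1 had 0.729%, 0.665% and 0.651% of the 3′-end reads of all tRNAs in vector and 1.06%, 0.882% and 1.01% in knockdown, without overlap. It was the 1 serine tRNA of 8 called for abundance after knockdown, with a log2 change of 0.38 (edgeR adjusted p = 0.00118; 41.9% of 74 tRNAs called, 20.3% upward). The change is one of share: its read counts were 263 to 380 in vector and 266 to 300 in knockdown, while the 3′-end reads of all tRNAs were 39524 to 52117 and 26392 to 30146.5. The call held without any 1 library, with log2 changes of 0.34 to 0.44. The other 7 serine tRNAs did not pass; Ser-CGA-4-1 took 0.422% ± 0.0387 of reads in vector input and 0.404% ± 0.0638 in knockdown input (SD, n = 3), and the shared AGA/TGA end 0.548% ± 0.0962 and 0.566% ± 0.0737 (SD, n = 3). Fewer molecules of a tRNA and fewer of its 3′ fragments captured cannot be told apart here.

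In vector IP, Ser-TGA-4-1 stood at opposite ends of the range with and without AlkB. Without AlkB it had 149, 127 and 105 3′-end reads, or 0.134%, 0.101% and 0.107% of all, below every input library. With AlkB it had 671, 1054 and 1044 reads, or 2.57%, 2.59% and 2.34%, above every input library. The shared AGA/TGA end went the other way on average, with 5.80%, 1.04% and 0.70% without AlkB and 0.920%, 0.412% and 0.423% with it, and here the groups overlapped. In knockdown IP without AlkB, Ser-TGA-4-1 had 2.34%, 2.22% and 0.141%, so that 2 replicates were near the treated level and replicate 3 near the vector level. With AlkB it had 2.197%, 3.30% and 1.595%.

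The edgeR test with the replicate as a block gave Ser-TGA-4-1 a log2 change of 3.93 with AlkB in vector IP (unadjusted p = 0.00649, adjusted p = 0.126), which did not pass. No tRNA of 73 passed there (0%; 17 with an unadjusted p under 0.05, and 34 by DESeq2), and this comparison was added after the data were seen. Without the block the adjusted p was 0.0415, with library totals in place of TMM 0.00161, by DESeq2 1.00e-10, and without vector IP replicate 3 0.0192. In knockdown cells the log2 change was 1.31 (edgeR adjusted p = 0.391), and the difference between the lines was not tested. No serine tRNA passed for abundance in IP against input either, 0 of 8 in each line, beside 24.4% of 78 tRNAs in vector and 5.48% of 73 in knockdown. Knockdown against vector within the IP libraries gave 0 of 8 both without AlkB (edgeR; 0 of 68 tRNAs, 2 with an unadjusted p under 0.05, Ser-TGA-4-1 among them with a log2 change of 3.66) and with it (0 of 71, 4 with an unadjusted p under 0.05).

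**Figure D4:**
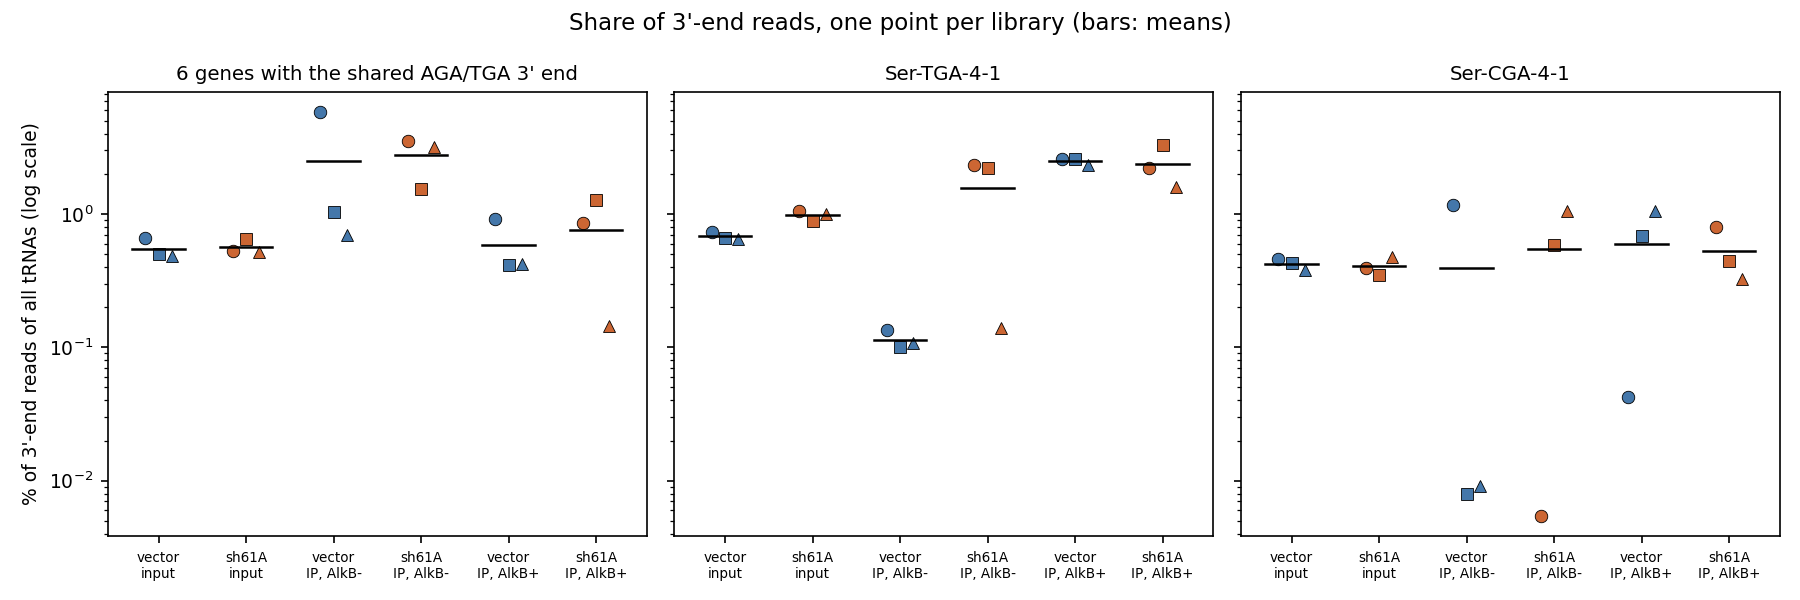
Percentage of the 3′-end reads of all tRNAs (log scale) taken by the 6 genes with the shared AGA/TGA end, by Ser-TGA-4-1 and by Ser-CGA-4-1, with a point per library (circles, squares and triangles for replicates 1, 2 and 3) and the mean of 3 as a bar. Input replicates lie close together, Ser-TGA-4-1 lies between 0.101% and 0.134% in vector IP without AlkB and between 2.34% and 2.59% with AlkB, and Ser-CGA-4-1 spans from 0.00545% to 1.17% over the IP libraries.

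Ser-CGA-4-1, which lists adenosines at positions 59 and 71 but not at 58, was even in input and uneven after IP. It had 238, 170 and 170 3′-end reads in vector input and 111, 105 and 125 in knockdown input. In vector IP without AlkB the replicates had 1298, 10 and 9 reads, and in knockdown 8, 161 and 1033. With AlkB they had 11, 279 and 473 in vector and 1216, 244 and 74 in knockdown. No order of groups can be read from such counts.

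Mismatch rates at serine adenosines were low at every position, and no serine site passed the threshold in any comparison with all libraries. Most sites had few mismatched reads, so these tests cannot show that rates stayed the same. Over all 18 libraries, reads of the shared AGA/TGA end carried a mismatch at position 58 in 78 of 10940 reads, 0.713% (Clopper-Pearson 95% interval 0.564% to 0.889%). Most of these reads came from IP without AlkB, 3537 in vector and 5339 in knockdown, and only 125 from input. The pooled rate therefore describes mainly that library type. At position 59 it was 68 of 13911 reads, 0.489% (0.380% to 0.619%), and at positions 68 and 71 0.276% (0.210% to 0.357%) and 0.143% (0.0963% to 0.204%). At the 5′ end, position 3 had 0.372% (0.320% to 0.430%) and position 14 had 0.159% (0.125% to 0.198%). Position 58 exceeded position 71 in 10 of the 11 IP libraries with at least 100 reads at both, and position 59 in 8 of 11; these are descriptions, since the reads overlap.

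In input the 6 libraries together had 125 reads of the shared AGA/TGA end at position 58 and none carried a mismatch, which allows up to 5.56% in vector (54 reads) and 4.23% in knockdown (71 reads) by the limit of 3 reads over the total. The Clopper-Pearson intervals of the same counts, drawn in the plot of mismatch by group, reach 6.603% and 5.06%. Ser-TGA-4-1, with more reads, had 4 mismatched of 368 at position 58 in vector input and 1 of 347 in knockdown input. Its rate at position 58 over all libraries was 0.540% (0.376% to 0.750%), and at position 59 it was 0.741% (0.594% to 0.913%), so that both bases had similar rates. Replicate 1 of knockdown IP with AlkB gave 14 of the 35 mismatched reads at position 58, and without it the rate was 0.441%. Replicate 1 of knockdown IP without AlkB gave 37 of the 87 at position 59, and without it the rate was 0.601%. Ser-CGA-4-1 had 1.05% (0.731% to 1.47%) at position 59 and 0.296% (0.173% to 0.474%) at position 71. Ser-GCT-3-1, the GCT gene with a listed position 58, had 3 reads there in vector input, 3 in knockdown input and 155 in vector IP with AlkB, with 0 mismatched in all of these. It had 8 reads with 0 mismatched in vector IP without AlkB, 3 with 1 mismatched in knockdown IP without AlkB, and 97 with 2 mismatched in knockdown IP with AlkB. The 4 genes with the Ser-GCT-3-1 end had 0.784% (0.486% to 1.196%) at position 59, but replicate 3 of knockdown IP without AlkB gave 15 of the 21 mismatched reads, and without it the rate was 6 of 1775 reads, 0.338%. The same 4 genes had 0.715% (0.535% to 0.937%) at position 64.

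**Figure D5:**
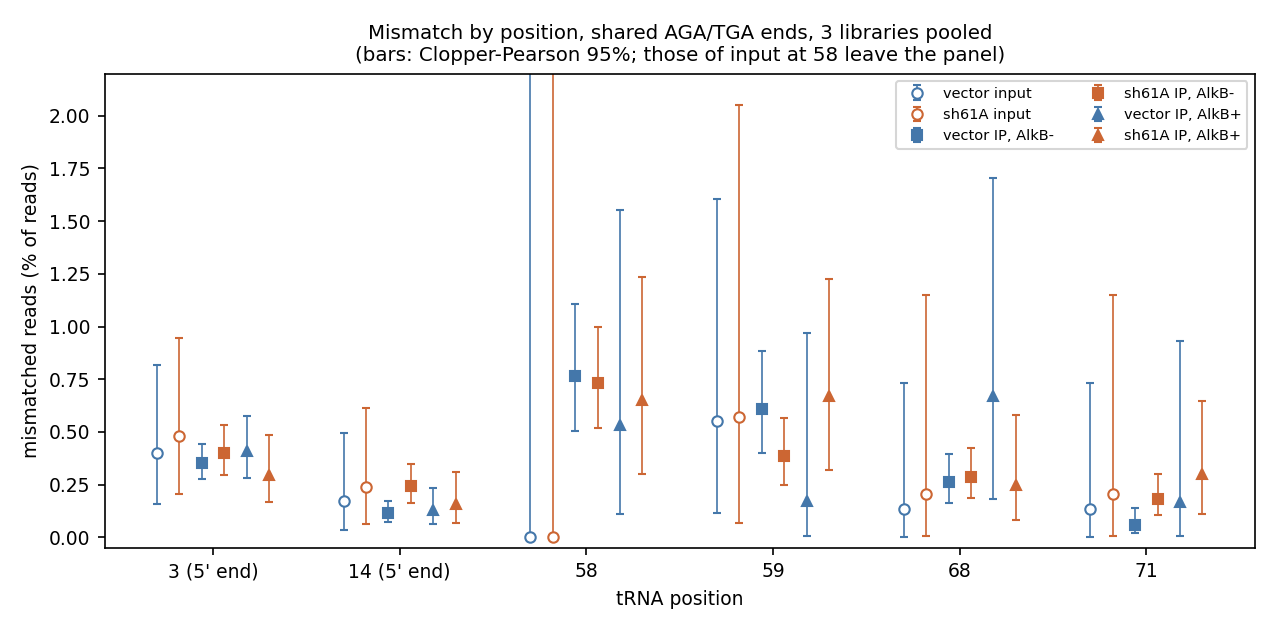
Mismatched reads as a percentage of reads at positions 3 and 14 of the AGA/TGA 5′ end and 58, 59, 68 and 71 of the shared AGA/TGA 3′ end in the 6 groups, with reads of 3 libraries pooled and Clopper-Pearson 95% intervals that cover counting error only. Position 58 has 0.763% and 0.730% in vector and knockdown IP without AlkB, 0% on 54 and 71 reads in input, and its intervals overlap between all groups.

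Among IP libraries without AlkB the shared AGA/TGA end had 0.738% ± 0.167 mismatch at position 58 in vector and 0.735% ± 0.0369 in knockdown (SD, n = 3), a difference far below the spread between libraries. With AlkB the values were 0.504% ± 0.460 and 0.440% ± 0.523 (SD, n = 3). Among sites with at least 20 reads in all 3 libraries, the highest mean rate in vector IP without AlkB was that of Ser-AGA-2-6 at position 58, with 1.09% ± 0.810, followed by Ser-AGA-3-1 at position 58 with 1.04% ± 0.376 and Ser-AGA-2-6 at position 59 with 0.988% ± 0.539 (SD, n = 3 each). Some GCT sites covered in fewer libraries had higher rates, such as Ser-GCT-4-2 at A2 with 4 of 246 reads, all in replicate 1. By the same limit the highest site in vector IP with AlkB was Ser-AGA-1-1 at position 68, with 2.17% ± 1.91 on 88 reads (SD, n = 3). In vector input, again with that limit, Ser-TGA-3-1 at position 59 was highest, with 2.12% ± 1.84 on 83 reads, followed by Ser-TGA-4-1 at position 59 with 1.04% ± 0.269 on 779 reads (SD, n = 3 each).

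A quasi-binomial test of mismatched over total reads called 0 of the serine sites in every comparison. Knockdown against vector gave 0 of 20 in input, 0 of 41 in IP without AlkB and 0 of 16 in IP with AlkB, with 1, 3 and 1 at an unadjusted p under 0.05, beside 0.528% of 379 (0.264% higher and 0.264% lower), 0% of 255 and 0% of 359 sites called over all tRNAs. AlkB against no AlkB gave 0 of 21 in vector and 0 of 12 in knockdown, with none at an unadjusted p under 0.05, beside 0% of 251 and 0.402% of 249. IP against input gave 0 of 13 in each line, with 0 and 1 at an unadjusted p under 0.05, beside 0% of 202 and 0% of 190. The AlkB and IP-against-input fits left out sites with no mismatched read in 1 condition. Among these was Ser-AGA-3-1 at A14, with 8 of 1753 reads in knockdown IP without AlkB and 0 of 733 with AlkB. These counts therefore cannot show sites where mismatch was wholly lost or newly gained. The lowest p was that of Ser-AGA-4-1 at number 77 (position 68), which had 0 mismatched of 1407 reads in vector IP without AlkB and 3 of 1392 in knockdown (unadjusted p = 0.000605, adjusted p = 0.154 by the quasi-binomial model). Those 3 reads were 2 in replicate 1 and 1 in replicate 3, and the other 5 genes of the shared end have the same sequence around this adenosine. The model did not hold the dispersion at 1 or more, so a few mismatched reads can give a small p. The other serine sites with an unadjusted p under 0.05 had few mismatched reads as well: Ser-AGA-1-1 at A14 went from 0.818% to 0% in input and from 0.133% to 0% in IP with AlkB after knockdown, and Ser-TGA-2-1 at A3 went from 0.0910% to 0.676% in IP without AlkB. Ser-TGA-3-1 at number 80 (position 71) went from 0% to 0.114% in IP without AlkB after knockdown. Ser-AGA-4-1 at A3 had 1.76% in knockdown input and 0.178% in knockdown IP without AlkB. With 1 library left out, which leaves 2 pairs in the blocked fits, 1 to 4 serine sites passed for AlkB in vector and 0 to 3 in the other comparisons. A dispersion estimated from 2 pairs can lie far below 1, so no AlkB effect is read from these calls.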

How the data were processed

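Per the labels' protocols, small RNA was immunoprecipitated with an m1A antibody, eluted and divided into a part treated with AlkB and an untreated part, and sequenced in paired ends. Per the file headers, the deposited table gives for each library the count of covering reads and of mismatched reads per site, not normalised. Dividing these counts gave the authors' mismatch rate, a fraction, to within 1e-09. The authors' ratio of untreated over treated rates (fold) and the deposited difference were not used. The build hg38 and the tools SAMtools 1.3.1, Bowtie2 2.2.4 and cutadapt 1.9.3 appear in the submitters' processing notes. The sources used here do not give how sites were listed or multiply mapped reads counted. A part of the table is not analysed here, and 6 lines repeating another line were counted once, none of them serine.

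All fits ran over the whole table in R 4.3.3 with Benjamini-Hochberg adjustment, a threshold of 0.05 and two-sided tests. Mismatch was tested by a quasi-binomial model where each library had 20 or more reads. In blocked fits, replicate pairs with no mismatched read were left out, as were sites with none in 1 condition. Read-through (reads at position 58 over the median of the sites 0 to 8 nucleotides from the 3′ end) was tested with limma 3.58.1 on log2 with a pseudocount of 0.5, and 3′-end reads with edgeR 4.0.16 (quasi-likelihood, TMM), with DESeq2 1.42.0 as an alternative. Fold changes on the log2(value + pseudocount) scale understate changes on few reads. AlkB and IP-against-input fits had the replicate number as a block, because the protocol divides the IP RNA and the labels number input and IP alike; deviations of same-numbered libraries correlated at -0.29 to 0.28, and in no comparison were all pairs above 0.1. Scripts were tested on simulated data. Named members followed a rule: position 58, anticodon bases, called members, sites with the smallest p or the highest vector rate, each tested tRNA, and the 3 nearest amino acids; of the smallest-p and highest-rate sites only some are printed. Members and lists were chosen with earlier results of these data known. Sums by shared 3′ end, the step from 59 to 58 and AlkB abundance tests were added after seeing the data.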

Additional observations from a re-analysis of the deposited data

How the results depend on the processing

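Depth limits input most, where the shared AGA/TGA end had 10 to 30 reads at position 58 per library. The counts of serine tRNAs called for read-through after knockdown in input (0 of 4) became 1 with a minimum of 10 reads and 1 with a pseudocount of 2, where Ser-AGA-3-1 had a log2 change of 0.77 (adjusted p = 0.0438). The step into position 58 of the shared AGA/TGA end kept its log2 change of 1.05 with the replicate block and had an adjusted p of 0.0537. Summed by anticodon, 2 calls became 0 with the replicate block, 0 with the mean over single tRNAs, and 0 to 1 without 1 library. Serine against the rest turned from -0.37 to 0.40 with the mean over single tRNAs. Calls for IP against input in vector went from 6 of 7 to 1 of 1 with a minimum of 50 reads, and in knockdown from 2 of 4 to 4 of 7 with a minimum of 10 and 0 of 1 with a minimum of 50. Abundance calls by DESeq2 were 1 in IP without AlkB after knockdown, 2 for AlkB in vector, 2 for IP against input in vector and 6 in knockdown, against 0 by edgeR; for AlkB in vector 1 tRNA was called without TMM and 1 without the replicate block, and for IP against input in vector 1 without the block. For the other results tested with and without the block, it changed no call.

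Leaving out each library in turn gave serine mismatch calls of 0 to 1 for knockdown in input, 0 to 1 in IP without AlkB, 1 to 4 for AlkB in vector, 0 to 1 for AlkB in knockdown, 0 to 2 and 0 to 3 for IP against input in vector and knockdown. With blocks these fits rest on 2 pairs, and the dispersion was not held at 1 or more. Read-through calls for IP against input ranged from 0 to 5 in vector and 0 to 4 in knockdown, and abundance calls for AlkB in vector from 0 to 1. Log2 changes after knockdown in input ranged from 0.78 to 1.33 (read-through) and 0.78 to 1.299 (step) for the shared AGA/TGA end. For IP against input, its read-through ranged from 2.51 to 3.81 in vector and 2.06 to 2.47 in knockdown, with calls lost in 4 of 6 cases each. For Ser-TGA-4-1 read-through ranged from 0.83 to 0.91 in vector, with the call lost in 5 of 6, and from -1.82 to 0.48 in knockdown, its step there from -1.73 to 0.68. The cause was not tested. Over all alternatives, values of main comparisons kept direction and call (counts: stayed close) in 295 cases, moved in 44, lost the call in 24 and changed sign in 5. Values of single tRNAs stayed in 55 cases and gained a call in 5.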
